A study of Mus musculus with 4 samples.

Results

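Adipogenic induction of control 3T3-L1 cells was examined on 2 of the 4 MeDIP-chip arrays of a study of DNA methylation, 1 array from before induction and 1 from after it. 3T3-L1 is a mouse embryo fibroblast line already committed to the fat lineage, and its confluent cultures become adipocytes when given an inducing medium. The control cells were the wild type line at day -2, before induction, and the same line at day +2, when they had been exposed to the inducers insulin at 167 nM, dexamethasone at 1 µM and IBMX (3-isobutyl-1-methylxanthine) at 0.5 mM. The other 2 arrays came from 3T3-L1 cells that stably carried shRNA8, a short hairpin RNA against the long non-coding RNA slincRAD, sampled at day -2 and at day +2 with the same inducers. All cells had been passaged in medium with newborn calf serum.

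In MeDIP, an antibody against 5-methylcytosine pulls methylated fragments out of sheared genomic DNA, and the pulled-down DNA (IP) is hybridized together with untreated DNA (input) in another colour. In mammals the mark sits mainly on cytosines followed by guanine, and methylation of a promoter usually goes with silence of its gene. IBMX raises cyclic AMP, dexamethasone activates the glucocorticoid receptor and insulin drives lipid synthesis, and together they start the cascade that ends with PPARG and CEBPA, the master regulators of fat cells.

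The study gives 1 array to each line and day. A difference between the days therefore has no replicate spread to be held against, no p-value is given, and the arrays of the shRNA8 line are set beside the control arrays as a second pair, not as a replicate. The number of arrays limits the precision. DNA was measured, so neither adipocyte markers nor slincRAD could be checked. Of 174638 genomic probes, 102944 (58.9%) had an input signal above background in both control arrays and were used. Probes no more than 1000 bp apart on the mm9 assembly were joined, and 18712 regions held at least 3 of them, and took up 96004 probes. The median region had 5 probes and was 1390 bp wide. The ratio of a probe is log2 of processed IP over processed input, centred on the median of its array. A day change is day +2 minus day -2, and the value of a region is the mean over its probes, with the SD over probes.

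IP and input differed greatly in brightness. The median signal of a spot after subtraction of background was 49.1 in IP at day -2 and 48.9 at day +2, over a background of 10. In input the medians were 6.49 and 5.95, over backgrounds of 23 and 22. Input well above background was found at 34.8% of genomic probes at day -2 and at 35.7% at day +2.

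No single promoter is named here, because an annotation of mm9 was not used. Regions carry mm9 coordinates. Multigene families are described by windows of 2 Mb that hold them according to general knowledge of the mouse map, and such a window also holds other genes. Lists of adipogenic, lipid and other promoters were not analysed here. Members of some of these families look alike at the promoter, to a varying degree. The 120 bases before the start sites of Speer4c and Speer4e, from RefSeq on GRCm38.p6 and read 5′ to 3′ along each gene, are shown because regions in the Speer windows moved together below. The family encodes spermatogenesis-associated glutamate-rich proteins, and capitals mark the 3 bases that differ.
Speer4c: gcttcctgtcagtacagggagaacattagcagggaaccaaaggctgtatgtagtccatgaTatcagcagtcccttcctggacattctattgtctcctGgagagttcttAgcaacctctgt
Speer4e: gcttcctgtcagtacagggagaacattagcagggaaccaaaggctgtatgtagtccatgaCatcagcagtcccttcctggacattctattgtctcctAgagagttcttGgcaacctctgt
These 2 promoters share 97.5% of their bases and are the most alike of the Speer pairs, whose lowest identity over 120 bases was 55%, between Speer1 and Speer4f2. Over 250 bases before the start, the median identity of a promoter to its closest relative in the family was 93.6% for 9 Speer genes (62% to 98.4%, with 5 of 9 at 90% or more), 93.2% for 14 Mup genes and 95.6% for 60 of the 163 vomeronasal receptor promoters of chromosome 7. It was 64.8% for 60 promoters each of the olfactory receptors on chromosomes 2 and 9, and 57.6% to 61.2% for Hoxa, Hoxb and Hoxd. These comparisons were chosen after the array values were seen, and they are not tied to single regions.

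The profiles of control cells before and after induction were nearly the same. Across probes, the values at day -2 and day +2 correlated with Pearson's r of 0.998 in IP, 0.962 in input and 0.947 in the ratio. These are correlations across probes of a pair of arrays that share their design and slide, and probes are not independent replicates. A region was counted as higher or lower when its mean ratio changed by 0.6 or more (1.52-fold) and 75% or more of its probes shared the direction. The ratio was higher at day +2 in 198 regions and lower in 265, which is 1.06% and 1.42% of all regions. Together they made up 2.47% of the regions. The median change over all regions was -0.0030, with the lowest 1% of regions below -0.70 and the highest 1% above 0.69. Without subtraction of background, 2 regions were higher and 2 lower by this rule.

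Taken apart, the channels moved very unequally. The SD of the day change over regions was 0.065 in IP and 0.268 in input, and over single probes it was 0.139 and 0.566. Input made up 94.3% of the summed variance of both channels at probes. In the 198 regions with a higher ratio, the median change was -0.71 in input and -0.0067 in IP. Their median net input dropped from 16.5 at day -2 to 8.04 at day +2, while net IP was 83.9 and 85.6. In the 265 regions with a lower ratio, the median change was 0.69 in input and -0.06 in IP. Their net input went from 8.6 to 13.5 and their net IP from 52.2 to 51.2. Input moved against the ratio in each of the 463 regions, and the IP change was larger than the input change in 1 of them. Most counted regions thus differed in how bright the input was, with nearly level IP.

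**Figure D1:**
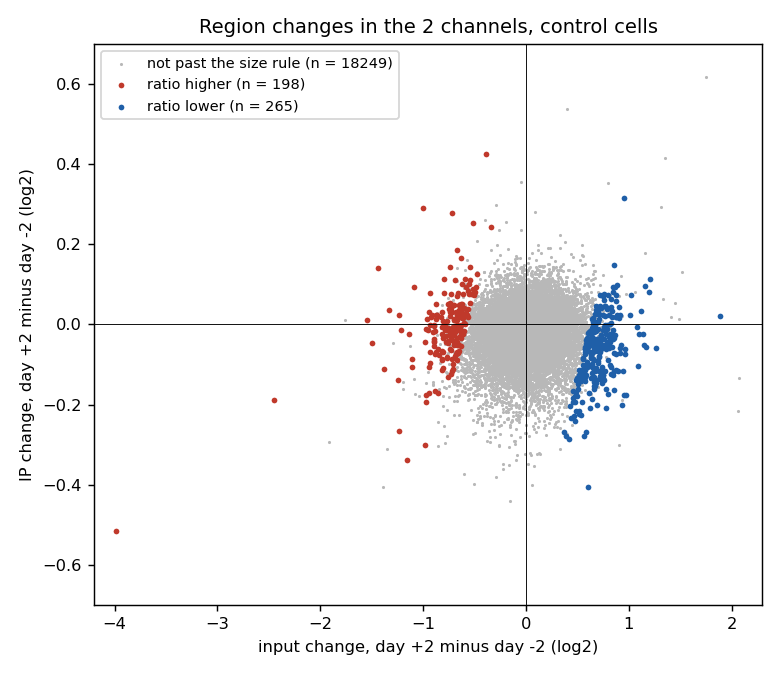
Day change of input (horizontal axis, log2) against that of IP (vertical axis, log2, on a narrower scale) for the 18712 regions of control cells. The 198 regions with a higher ratio lie to the left and the 265 with a lower ratio to the right. In IP the higher group spreads around 0, with 88 of 198 above it. Of the lower group, 210 of 265 lie below 0 in IP, with a median of -0.06 against -0.017 over all regions.

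With the size rule of 0.6 applied to input alone, 232 regions (1.24%) were brighter at day +2 and 217 (1.16%) were dimmer. With a smaller size rule of 0.2 (1.15-fold), fitted to its narrow spread, IP was higher in 10 regions (0.0534%) and lower in 164 (0.876%). After removal of a trend of the change on signal level, the counts were 30 higher and 35 lower. Regions of lower IP were dim ones. Of the 164, 132 lay in the dimmest of 5 equal classes of regions by IP signal, with brightness taken from the shRNA8 array of day -2. Their median net IP was 35.4 at day -2 and 30.4 at day +2, and their probes were longer, with a median of 51.8 against 46.8 bases over all regions. IP was lower in 0.173% of regions with a mean probe length up to 46 bases and in 7.56% of those above 55 bases. Without subtraction of background the median change of the 164 was -0.12 in place of -0.23, and 18 of them still moved by 0.2. In shRNA8 cells their median IP change was 0.042, with 55 of 164 also negative. It was 0.021 there over all regions of the dimmest IP class and 0.0045 over all regions. The part of brightness and probe length in the lower IP was not tested.

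Named regions of the IP channel rested on few spots. At chr1:174405018-174405681 net IP was 290 at day -2 and 441 at day +2, and the IP change was 0.54 ± 0.98 (SD over 4 probes), with input at 0.40. Net IP at chr7:3867037-3867908 was 243 and 343, a change of 0.23 ± 0.28 over 4 probes. At chr1:155271052-155272605 it was 146 and 94.5, a change of -0.31 ± 0.60 over 4 probes. Each of these SDs was larger than the mean. At chr7:22616365-22617784, where the SD was smaller than the mean, net IP was 11.2 and 8.83, with a change of -0.32 ± 0.20 over 4 probes. Among regions past the IP rule, with 75% or more of their probes sharing the direction in IP and with 4 or more probes, the 8 with the most positive IP changes had values of 0.235 to 0.537. The 8 with the most negative had -0.515 to -0.306. In shRNA8 cells the same regions had median IP changes of 0.0126 and -0.0263. The value of -0.515 was that of chr2:113125182-113126338, where 1 probe changed by -1.82 in IP and the others by -0.137 to -0.0293. The spot of that 1 probe was marked as saturated, non-uniform or outlying at day -2.

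In 23 regions both the ratio and IP moved the same way, IP by at least 0.2, 18 of them lower and 5 higher. At chr13:66213169-66214766 net IP was 5.33 at day -2 and 4.61 at day +2, and net input was 12.1 and 25.0. The ratio change was -0.96 ± 0.65 over 7 probes, with -0.21 in IP and 0.78 in input, and it was -0.96 in shRNA8 cells. At chr14:4126040-4127318 net IP was 5.91 and 4.66, and net input 10.5 and 12.9. Its ratio change was -0.81 ± 0.50 over 6 probes, with -0.28 in IP. IP was close to background in both of these regions. Among the 5 higher regions, chrX:91611231-91612743 had net IP of 78.0 and 130, and net input of 18.1 and 15.3, with a ratio change of 0.83 ± 1.56 over 5 probes. Its IP change of 0.42 rested mainly on 1 probe, whose net IP went from 28.4 to 130, a change of 2.16. The region did not pass the IP rule. At chr2:24804668-24805677 net IP was 59.7 and 86.2 and net input 31.0 and 13.3, with a ratio change of 1.32 ± 1.84 over 4 probes. In the higher regions named here the SD over probes was larger than the mean.

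Counted regions were also dim in input. In 5 equal classes of input brightness, from dimmest to brightest, 5.8%, 3.07%, 1.74%, 1.18% and 0.588% of regions passed the size rule. The dimmest class held 135 lower and 82 higher regions, and the brightest 15 lower and 7 higher. By probe length, the lower share went from 0.599% of regions with probes up to 46 bases to 6.81% of those above 55, and the higher share from 0.838% to 1.89%. The part of input brightness and probe length in the counts was not tested.

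**Figure D2:**
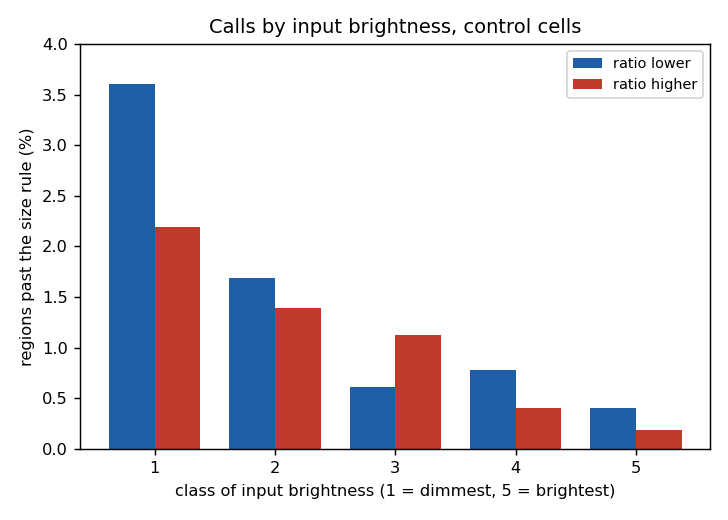
Percent of regions with a lower or higher ratio at day +2 in each of 5 equal classes of input brightness, taken from the shRNA8 array of day -2 (1 is the dimmest). The percent of both kinds together falls from 5.8 in the dimmest class to 0.588 in the brightest.

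Spots within a region did not carry the change evenly. All probes moved the same way in 115 of the 198 higher and 195 of the 265 lower regions. The share of 75% forces this in regions of 3 probes, which were 60 of the higher and 83 of the lower ones. With 4 or more probes it held for 55 of 138 higher and 112 of 182 lower regions. The SD over probes was larger than the mean change in 95 higher and 78 lower regions. Between neighbouring probes of a region the day change correlated with r of 0.015 in the ratio, 0.019 in IP and 0.012 in input, over 77292 pairs that share an array. Just inside the size rule stood chr4:57183824-57184899, chr8:41719650-41721308 and chrX:34335364-34335829, each at -0.60. Just outside it were chr5:26348936-26350594 at -0.599, chr10:100051671-100053162 at 0.599 and chr4:108790218-108791532 at 0.5999.

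The named lowest regions were taken from those with 4 or more probes that all moved down in the ratio, so that the evenness of their probes follows from the choice. Lower means, to -2.25, occurred outside this choice. At chr2:176265474-176266778, in a window of KRAB zinc finger genes at the distal end of chromosome 2, median net input was 13 at day -2 and 23.7 at day +2, and net IP was 25.7 on both days. The ratio change was -1.17 ± 0.38 over 6 probes, made up of 1.14 in input and -0.052 in IP. Single probes changed by -0.727 to -1.77, so that all 6 moved down. At chr7:8638831-8640319, in a window of vomeronasal receptor genes, net input was 6.42 and 12.1 and net IP 7.70 and 7.93. There the ratio change was -1.14 ± 0.47 over 6 probes. At chrX:3462839-3464333 net input was 6.81 and 10.1 and net IP 3.11 and 2.44, with a ratio change of -1.11 ± 0.51 over 7 probes. IP lay close to background there. The neighbouring chrX:4445299-4446813 and chrX:5244885-5246570 had ratio changes of -0.95 ± 0.58 and -1.10 ± 0.66 over 7 probes each. Chromosome X held 761 of all 18712 regions and 18 of the 265 lower ones. It also held 3 of the 10 named lowest regions, which were picked by their values. Among these 10, 9 were also negative in shRNA8 cells, with a median of -0.595. The exception, chr11:61080350-61081713, changed by -1.09 ± 0.57 in control cells and by 0.74 ± 0.23 in shRNA8 cells over 4 probes.

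The named highest regions were chosen in the same way, with all probes moving up. At chr11:84983308-84984992 net input was 17.9 at day -2 and 5.56 at day +2, and net IP 115 and 124. The ratio change was 1.00 ± 0.80 over 5 probes: 3 probes changed by 1.41 to 1.73, and the other two, which were the brightest in input, by 0.0272 and 0.253. Net input at chr16:37010572-37012269 was 14.2 and 4.27 and net IP 171 and 185, with a ratio change of 1.14 ± 0.91 over 5 probes. At chr3:138077483-138078853 net input was 18 and 3.91 and net IP 53.0 and 54.9, with a ratio change of 1.47 ± 1.08 over 4 probes. In these regions input ended near background at day +2. The largest mean, 3.49 ± 5.19 at chr2:113125182-113126338, came from 1 spot whose net input was 41700 at day -2 and 4.64 at day +2 and that Feature Extraction had marked as saturated, non-uniform or outlying. The other 3 probes of that region changed by 0.236 to 1.25. Of the 10 named highest regions, 6 were negative in shRNA8 cells, with a median of -0.0183.

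**Figure D3:**
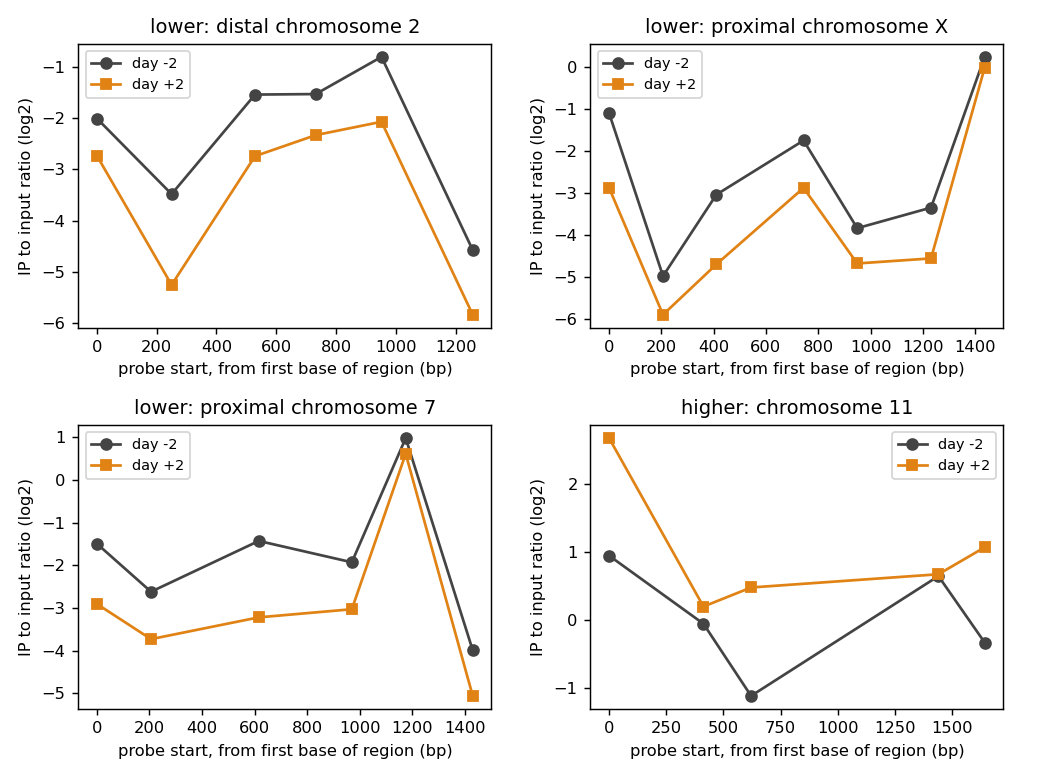
Log2 ratio of IP to input of each probe at day -2 and day +2 in 3 of the lowest regions and 1 of the highest, plotted by distance from the first base of the region. In the 3 lower regions the line of day +2 runs below that of day -2 at each probe, while in the higher region of chromosome 11 a gap opens at 3 of 5 probes.

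Part of the lower regions gathered in a few windows, and higher regions did not. Among 980 windows of 2 Mb with at least 5 regions, 11 held 3 or more lower regions, and none held more than 2 higher ones. These 11 windows contained 51 of the 265 lower regions and 5 of the 198 higher ones, among 284 regions. Their count of lower regions follows from how they were chosen. The remaining 214 lower and 193 higher regions lay among 18428 regions elsewhere. Over all regions 1.42% were lower and 1.06% higher. Windows had a median of their medians of 0.0034. The window at 176 to 178 Mb of chromosome 2 held 9 lower regions among 21, with a median ratio change of -0.55, of 0.47 in input and of -0.074 in IP. There 118 of 136 probes had a lower ratio, and median net input was 18.1 at day -2 and 23.7 at day +2. At 14 to 16 Mb of chromosome 5, 6 of 13 regions were lower, with a median of -0.57. Other windows with several lower regions were 174 to 176 Mb of chromosome 2 with 6 of 31, 12 to 14 Mb of chromosome 19 with 5 of 39, and 44 to 46 Mb of chromosome 14 with 4 of 17. In the window of chromosome 19 the median was 0.019, with 18 of 39 regions below 0, whereas 18 of 21 and 12 of 13 regions lay below 0 at 176 to 178 Mb of chromosome 2 and 14 to 16 Mb of chromosome 5. The highest median of any window was 0.33, at 42 to 44 Mb of chromosome 15, from 5 regions. By autosome, the share of lower regions ran from 0.663% on chromosome 15 to 2.42% on chromosome 2. It was 2.37% on chromosome X, and none of the 7 regions of chromosome Y was lower.

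Of the gene family windows, those of the Speer genes and of KRAB zinc finger genes on chromosome 2 stood lowest. KRAB zinc finger proteins bind DNA and recruit corepressors that silence, among others, transposable elements. In the 2 Speer windows of proximal chromosome 5, 9 of 26 regions (34.6%) were lower, against 1.42% of all regions, and none was higher, against 1.06%. The median changes were -0.53 in the ratio, 0.49 in input and -0.062 in IP. Median net input was 22.6 at day -2 and 30.2 at day +2, and net IP was 37.3 on both days. In the KRAB windows of distal chromosome 2, 15 of 52 regions (28.8%) were lower and none higher, with medians of -0.46, 0.41 and -0.05, and net input of 18 and 23.6. At these families 84.3% and 70.5% of single probes had a lower ratio, against 52.0% over all regions. The lowest Speer region was chr5:14937976-14939632, where net input was 33.8 and 51.2 and net IP 34.6 and 34.7, with a ratio change of -0.82 ± 0.42 over 8 probes. Earlier results of these data had already pointed to windows on these chromosomes, so that their choice is not independent.

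Other families of mouse-expanded genes were shifted less. In the windows of takusan genes on proximal chromosome 14, a family first described at neuronal synapses, the median was -0.38, each of 16 regions lay below 0 and 2 were lower by the size rule. In the windows of vomeronasal receptors, which sense pheromones, the median was -0.22, with 7 lower (11.5%) and 2 higher of 61 regions. The KRAB zinc finger windows of distal chromosome 4 had a median of -0.10 and 3 lower of 46 (6.52%), beside the 1.42% of all regions. At the major urinary proteins, lipocalins that carry pheromones, the median was -0.082 and none of 22 regions passed the size rule in control cells, while 10 were lower in shRNA8 cells with a median of -0.58. The difference between the lines was not tested.

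Developmental and structural clusters had median ratio changes between -0.044, at type I keratins, and 0.11, at Hoxb, against -0.003 over all regions. In size, the median of Hoxb was close to that of the KRAB windows of chromosome 4 (-0.10). Hox genes, which set position along the body axis, had median ratio changes of 0.042 in Hoxa, 0.11 in Hoxb, -0.024 in Hoxc and -0.039 in Hoxd. Their windows held 21, 52, 44 and 21 regions in this order, of which 1 passed the size rule, a higher one at chr11:96891185-96891637 in the window of Hoxb, with net input of 9.47 and 5.09 and a ratio change of 0.63 ± 0.52 over 3 probes. Histone genes of chromosome 13 had 1 lower and 1 higher of 93 regions, with a median of 0.052. Type I keratins with keratin-associated proteins had 1 lower of 136, type II keratins 1 lower and 1 higher of 63, and the epidermal differentiation complex, which builds the cornified layer of skin, 1 higher of 41. Olfactory receptors of chromosome 9 had none of 81. Those of chromosome 2 had 8 lower (10.5%) and 3 higher of 76, with 1.42% lower and 1.06% higher over all regions, and medians of -0.052 in the ratio, 0.014 in input and -0.092 in IP, which was the lowest IP median of the 16 families. Net IP there was 26 at day -2 and 26.6 at day +2, among dim probes with a mean length of 54.3 bases. Over all 16 families 47 lower and 9 higher regions were counted among 851 regions, or 5.52% lower, against 1.22% lower among the 17861 regions outside them. Over all regions 1.06% were higher.

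**Figure D4:**
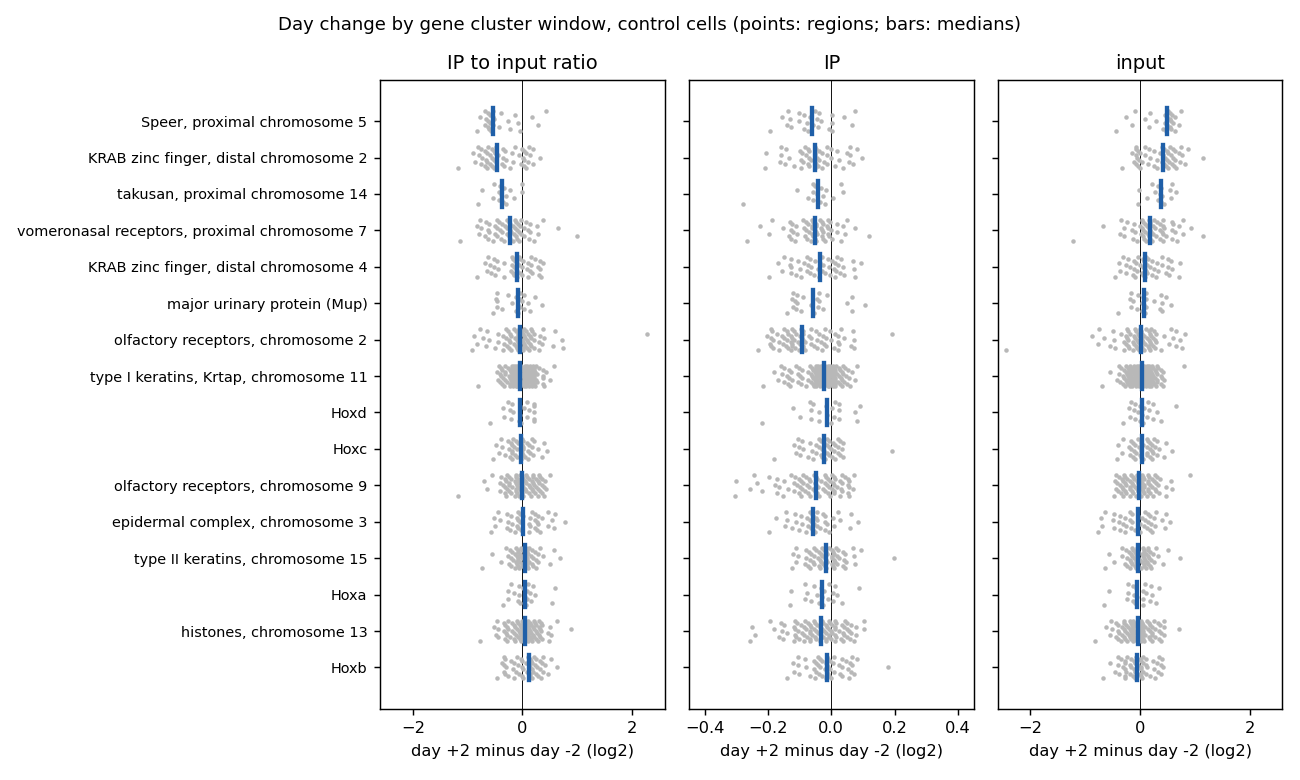
Day change of the ratio, of IP (narrower scale) and of input, all log2, for each region in the windows of 16 gene families, with bars at the medians. The medians of the Speer windows (-0.53) and the KRAB windows of chromosome 2 (-0.46) lie lowest in the ratio and highest in input, while the medians of IP stay between -0.092 and -0.013.

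Lower regions still clustered when the same 2 arrays were restricted to bright input. This is a subset of the same probes, chosen after values were seen, and gives no separate support. When probes were restricted to an input well above background in both arrays, 9814 regions were left, of which 25 were higher (0.255%) and 27 lower (0.275%). Of the 27 lower regions, 14 lay in 2 families, 8 of 44 in the KRAB windows of chromosome 2 and 6 of 21 in the Speer windows. None of the 381 regions of the 16 families was higher, which is near the share of 0.255% over all regions with bright input. Median ratio changes under this restriction were -0.34 at the KRAB windows and -0.53 at the Speer windows. At chr2:175404530-175405680 the ratio changed by -0.86 ± 0.24 over 5 probes, with 0.76 in input and -0.13 in IP. At chr5:26348936-26350310 it changed by -0.63 ± 0.13 over 7 probes, with 0.55 in input and -0.10 in IP. Both SDs were much smaller than the means, which did not hold for every such region. At chr2:175032082-175033562, also in the KRAB windows, the ratio changed by -0.66 ± 0.80 over 6 probes. Without subtraction of background the medians of the KRAB and Speer windows were -0.15 and -0.27, against -0.0085 over all regions, and no region in any family passed the size rule.

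In the shRNA8 line, whose arrays are separate from those of the control line, the day change of the lower regions tended the same way. The ratio was also negative there in 173 of 265 regions (65.3%), against 47.6% of all regions, with a median of -0.21. By the size rule 62 were lower in both lines and 5 went the opposite way, while in shRNA8 cells 2.62% of all regions were lower and 1.37% higher. Of the 198 higher regions, 96 (48.5%) were positive in shRNA8 cells, with a median of -0.0095, and 3 were higher in both lines while 4 went the opposite way. In the 11 windows with 3 or more lower regions, 41 of 51 were negative in shRNA8 cells, with a median of -0.71. Outside them it was 132 of 214, with a median of -0.14. All 9 lower regions of the Speer windows were lower in both lines, as were 11 of 15 in the KRAB windows of chromosome 2. Of all regions in these windows, 17 of 26 and 28 of 52 were lower in shRNA8 cells. Median ratio changes in shRNA8 cells were -0.77 and -0.73 at these families, with 0.71 in input at each and with -0.028 and 0.0043 in IP. With bright input only, 23 of the 27 lower regions were negative in shRNA8 cells and 15 were lower by the size rule. Of the 25 higher regions, 12 were positive there and none was higher. Over all 9814 regions with bright input, 82 were lower and 24 higher in shRNA8 cells. None higher among 25 is thus near the share of all regions. All 4 arrays lay on 1 slide and share their probes, so that the lines are not independent of the array. The part of the shared slide and probes in this likeness was not tested.

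**Figure D5:**
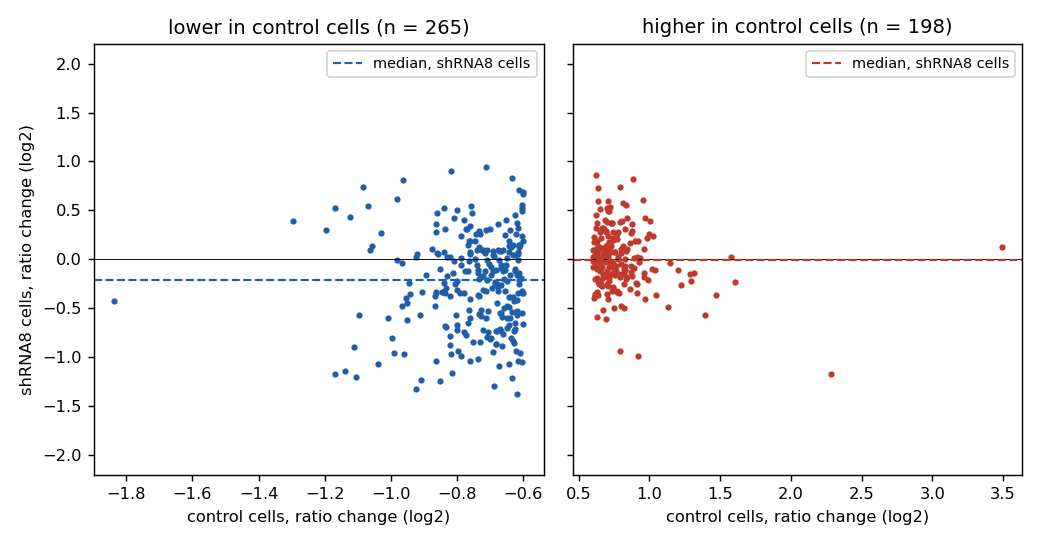
Ratio change in shRNA8 cells (vertical axis, log2) against that in control cells (horizontal axis, log2) for the 265 lower and the 198 higher regions of control cells. The dashed medians in shRNA8 cells are -0.21 for the lower regions and -0.0095 for the higher ones.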

How the data were processed

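Genomic DNA from 4 samples was measured on 2-colour Agilent arrays, with IP in Cy5 and input in Cy3 per the labels. Per the file headers, the authors deposited intensity values made by Feature Extraction (Agilent, version 11.0.1.1), namely spot and background medians, a background-subtracted signal and a processed signal. The build is mm9, per the file headers. The submitters' processing notes name limma without its role.

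Here, probes with input above background in both control arrays were used, and each array was centred on its median. Probes are 45 to 60 bases long. The net signals printed are the deposited background-subtracted intensities, given as medians over the probes of a region, and are not centred. No test was made, with 1 array per group. The script was tested on simulated data.

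Members, lists, windows and thresholds were chosen with earlier results of these data known. Named regions were, among those past the size rule with at least 4 probes all moving the same way, the 10 highest and 10 lowest by median; the 8 highest and 8 lowest by IP; those whose IP moved the same way by 0.2; 1 per family window; and 3 each just inside and outside the rule. Some of them are given only as ranges. A window of olfactory receptors on chromosome 7 was dropped after the files were seen, since its place on mm9 was not certain. The fixed promoter lists were not analysed here. The restriction to bright input by family and the promoter identities were chosen after values were seen. Alternatives covered scaling, filters, background, region and size rules, and trends. Loess used limma 3.58.1 under R 4.3.3. All else used Python 3.11.15 with pandas 2.3.3 and numpy 2.4.6, and matplotlib 3.10.9 drew the figures.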

Additional observations from a re-analysis of the deposited data

Results flagged for a closer look

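Among the named regions, 2 passed the size rule in opposite directions, with every probe down in control cells and up in shRNA8 cells. Over the whole array, 5 of the 265 lower regions were higher in shRNA8 cells by this rule, where 1.37% of all regions were higher. Of the 198 higher regions, 4 were lower there, against 2.62% of all regions. The difference between the lines was not tested. At chr11:61080350-61081713 the ratio change was -1.09 in control cells and 0.738 in shRNA8 cells over 4 probes, with input changes of 1.19 and -0.78. At chrX:34335364-34335829 it was -0.601 and 0.663 over 3 probes, with input changes of 0.588 and -0.641. IP changed by at most 0.081 in size in these regions in either line.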

How the results depend on the processing

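No paired analysis was possible because each group has 1 array. Counts of regions with a higher and a lower ratio, 198 and 265, were within 1.5 times of these under quantile normalization, scaling to 1 median absolute deviation, an input filter over all 4 arrays, removal of marked spots, gaps of 500 bp, medians of probes, removal of a trend on probe length, and autosomes alone. Higher and lower counts were 499 and 588 after loess within each array, 25 and 27 for input well above background, 105 and 171 without the input filter, 2 and 2 without background subtraction, 59 and 108 with at least 5 probes, 18 and 17 at a size of 1, and 716 and 795 at a size of 0.4. With all probes moving the same way, 115 were higher. IP gave 3 higher and 19 lower at a size of 0.3, 229 and 1374 at 0.1, 30 and 35 after removal of a trend on signal level, and 2 and 50 with at least 5 probes, and 21 lower without background subtraction. Input gave 115 higher and 141 lower without the filter, 16 and 26 where it was well above background, and 3 and 2 without background subtraction. In the family windows, 47 lower and 9 higher regions became 14 and 0 for bright input, and 0 and 0 without background subtraction. Most named regions past the size rule of the ratio did not keep that size. Without background subtraction 54 of 55 fell below it. With input well above background 31 of the 42 that kept probes did, and after quantile normalization 6 of 55. Among these named regions the sign turned for 7 values. With input well above background these were chr1:192988204-192989117 at -0.127, chr8:41719650-41721308 at 0.0589, chr11:70432200-70433947 at -0.163 and chrX:13786974-13788637 at 0.436, each from 1 remaining probe. Without background subtraction they were chr2:89258071-89259270 at 0.0133, chr11:61080350-61081713 at 0.00838 and chr11:70432200-70433947 at -0.0588. The higher share of calls, 42.8%, was 51.7% after removal of the trend on probe length. Dim input limits all ratios, and the causes of these shifts were not tested.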

Other observations

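With bright input only, the lowest region lay outside the gene family windows, at chr17:39979980-39980438. There the ratio changed by -1.83 ± 0.72 over 3 probes in control cells, with 1.87 in input and 0.016 in IP, and by -0.47 in shRNA8 cells. It was chosen after its values were seen. On chromosome X the window at 30 to 32 Mb had a median ratio change of -0.43, with each of 12 regions below 0, and a median of -0.67 in shRNA8 cells. The window at 2 to 4 Mb had a median of -0.39, of 0.28 in input and of -0.16 in IP, the lowest IP median of the 980 windows. That window held 8 regions with IP close to background, at a median net IP of 4.73 at day -2 and 4.09 at day +2. Without subtraction of background its IP median was -0.043. In shRNA8 cells its medians were -0.86 in the ratio and 0.057 in IP.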
